A study of Mus musculus with 2 samples.

Results

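The miR-15 family was examined in the hearts of newborn mice. It was followed through 6 microRNA (miRNA) genes in 3 loci, Mir15a with Mir16-1, Mir15b with Mir16-2, and Mir195a with Mir497. The members were chosen by gene symbol, and all 6 were found among the 2202 miRNA genes of the tables. The libraries are microRNA-seq of total RNA, of a size range given as below 30, from male B6CASTF1/J mice aged 4 days. B6CASTF1/J is the first-generation cross of C57BL/6J and CAST/EiJ, and no allele, treatment or control was added. The 2 libraries form 1 group, replicate 1 from the animal called male 03 and replicate 2 from male 04, so every difference below is between libraries of that group and not between conditions. They share a donor identifier in the labels, and if they do not come from separate animals their spread is technical.

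A miRNA recognises its target messenger RNAs mainly through the seed, bases 2 to 8 from its 5′ end. The miR-15 family is known to repress genes that drive the cell cycle, among them D and E cyclins and the checkpoint kinase Chek1, and the anti-apoptotic gene Bcl2. In the mouse heart, miR-195 is known for its rise after birth, around the time when heart muscle cells leave the cell cycle.

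The mature sequences below, from RefSeq on GRCm38.p6, show what the members share and where they part. Capitals mark the seed. The 5p arms of the 6 members come to 5 distinct sequences, because Mir16-1 and Mir16-2 give the same miR-16-5p. miR-322-5p, from the X-linked gene Mir322, is shown because it carries the same seed outside the family's loci.
miR-15a-5p: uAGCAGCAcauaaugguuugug
miR-15b-5p: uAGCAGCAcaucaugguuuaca
miR-16-5p: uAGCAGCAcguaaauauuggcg
miR-195a-5p: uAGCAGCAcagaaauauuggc
miR-497a-5p: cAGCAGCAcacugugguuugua
miR-322-5p: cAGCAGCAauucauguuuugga

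All 5 family sequences have the seed AGCAGCA, which 11 of the 1738 mature sequences in the table carry (0.633%). Beyond the seed, compared position by position from the 5′ end, some pairs are closer than others. miR-16-5p and miR-195a-5p are identical at 11 of 13 positions after the seed. miR-15a-5p is identical to miR-15b-5p and to miR-497a-5p at 10 of 14. miR-16-5p and miR-497a-5p are identical at 4 of 14. miR-497a-5p begins with C where the other family members begin with U.

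The Mir16 genes need a separate reading. Their hairpins share a run of 23 bases that holds all of miR-16-5p (capitals), and their 3p arms differ (capitals mark bases 2 to 8).
Run in both Mir16 hairpins: UAGCAGCACGUAAAUAUUGGCGu
miR-16-1-3p: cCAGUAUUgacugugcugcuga
miR-16-2-3p: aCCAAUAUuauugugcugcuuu
A read that lies within the run matches both loci. The tables keep reads that match several places apart from the gene counts, as 3657699 multi-mapped reads (38.1% of all reads) in replicate 1 and 3929811 (42.3%) in replicate 2. The counts of Mir16-1 and Mir16-2 therefore leave out miR-16-5p reads that lie within the run. They hold 3p reads and reads that reach past the run, and the tables do not give the part of each. These counts are lower limits of miR-16 and no measure of its 5p arm. Of the 12 member arms, counted gene by gene, only the 5p arms of the 2 Mir16 genes share a 20-base window with another hairpin. The table holds 1005 hairpins. Copies elsewhere in the genome were not searched.

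Sense counts, the reads on the gene's own strand, came to 4196577 and 3801738 in replicates 1 and 2. CPM are counts scaled to these totals, 1 count is worth 0.238 and 0.263 CPM, and 0 counts allow up to 0.715 and 0.789 CPM, the level of 3 counts. Intervals are at 95% and cover counting error only. All 7 heart muscle miRNA genes checked (Mir208a, Mir208b, Mir499 and the Mir1a and Mir133a copies) had reads in both libraries, with summed levels of 13094 and 8924 CPM. Most of this came from Mir208a, Mir208b and Mir499. Few reads were counted for Mir1a-1 (10 and 13), Mir133a-1 (11 and 29) and Mir133a-2 (7 and 5). Reads that match several gene copies are left out here too, so the counts of the Mir1a and Mir133a copies are lower limits. What part of the multi-mapped reads belongs to these copies was not tested. The endothelial Mir126a held 10.9% and 4.93% of sense counts, and the smooth muscle genes Mir143 and Mir145a together held 4.86% and 7.95%. Liver Mir122 reached 309 and 105 CPM. Of 6 neuron genes 4, the Mir124a copies and Mir9-2, were at 0 in both libraries, and the list summed to 0.238 and 22.1 CPM. Reads that match several copies are missing from these counts as well, so they do not show absence of the miRNA. The 5 epithelium genes summed to 299 and 354 CPM, the 4 white blood cell genes to 1478 and 1542 CPM and the 3 red blood cell genes to 493 and 400.3 CPM.

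Together the 6 members held 1.15% of sense counts in replicate 1 (1.14 to 1.16 by the Wilson method). In replicate 2 they held 0.343% (0.337 to 0.349), which gives a mean of 0.747% ± 0.572 (SD, n = 2). Replicate 1 was thus 3.36-fold higher, on the scale of total counts. These shares leave out multi-mapped reads, and with those reads added to the total alone the mean was 0.392%. The endothelial Mir126a, liver Mir122 (log2 ratio -1.54) and the heart muscle genes Mir208a and Mir208b (-0.73 and -0.80) differed in the same direction, and the smooth muscle genes in the opposite one. With TMM scaling Mir208a and Mir208b were at -0.43 and -0.50, and Mir499 at -0.02. Of the 7 heart muscle genes 3 were lower and 2 higher in replicate 2 by Fisher's exact test. By the same test 3 of the 4 white blood cell genes were higher and 1 lower. Of the 3 red blood cell genes 2 were lower, and of the 5 epithelium genes 2 were higher and 1 lower. Only 1 neuron gene was tested, and it was higher. Of all 441 miRNA genes tested, 56.9% differed and 36.5% were lower in replicate 2. The 2 higher heart muscle genes had low counts, Mir1a-2 with 139 and 207 and Mir133a-1 with 11 and 29. Each has another copy in the list, and its counts leave out multi-mapped reads. The direction of these genes with such reads included was not tested. The part of these cell types in the members' difference was not tested, and in whole tissue fewer cells of a type and less RNA per cell cannot be told apart.

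Mir15b (chr3:69009772-69009835, plus strand, mm10) had the most sense counts of the family. It lies in an intron of Smc4, which encodes a condensin subunit that compacts chromosomes in mitosis. Its counts were 18973 in replicate 1 and 4261 in replicate 2, or 4521 and 1121 CPM (2821 ± 2404, SD, n = 2). Among all miRNA genes it ranked 37 in replicate 1 and 64 in replicate 2.

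Its neighbour Mir16-2 (chr3:69009902-69009996, plus strand) follows after 66 bases in the same Smc4 intron. It had the fewest sense counts of the family, with multi-mapped reads left out. Its counts were 747 and 730, or 178 and 192 CPM (185 ± 9.91). The libraries were close to each other for this gene, unlike for Mir15b beside it.

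Mir195a (chr11:70235042-70235135, plus strand) showed the widest gap between the libraries. It had 13113 and 1661 counts, or 3125 and 437 CPM (1781 ± 1901). No gene on its own strand is annotated over it in GENCODE M21, and 0610010K14Rik lies 70 bases away on the other strand. Its rank among all miRNA genes was 46 in replicate 1 and 97 in replicate 2.

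Mir497 (chr11:70234717-70234800, plus strand), 241 bases from Mir195a, had 3054 and 1167 counts, or 728 and 307 CPM (517 ± 297). It overlaps Mir497b on the opposite strand, which had 0 and 1 counts on its own strand. Counts taken without regard to strand were 0 for both genes in both libraries, since a read in the overlap is then ambiguous. Only the strand-aware counts give Mir497 a value.

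Mir15a (chr14:61632027-61632110, minus strand) lies in introns of the long noncoding RNA gene Dleu2, the mouse counterpart of a gene in a region often deleted in chronic lymphocytic leukaemia. It had 9866 and 3235 counts, or 2351 and 851 CPM (1601 ± 1061). Mir16-1 (chr14:61631880-61631972, minus strand), 54 bases away, is intronic in 8 of the 9 Dleu2 transcripts that span it and overlaps an exon in the remaining transcript. It had 2574 and 1982 counts, or 613 and 521 CPM (567 ± 65.1). As at the Smc4 locus, the Mir15 gene differed widely between the libraries and the Mir16 gene little.

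**Figure D1:**
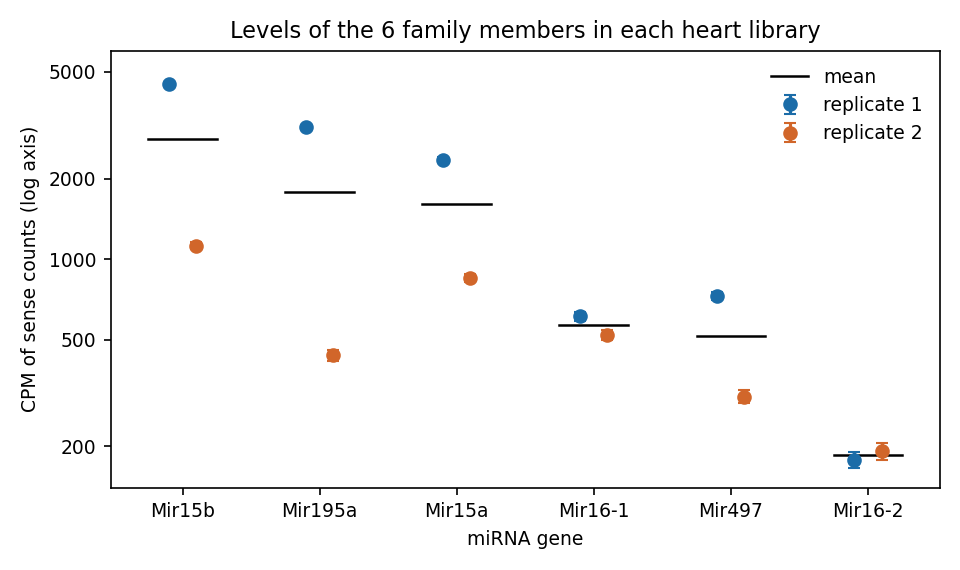
CPM of sense counts (log axis) for each member in replicate 1 (blue) and replicate 2 (orange); bars are exact Poisson intervals at 95%, mostly smaller than the points, and black lines are means of the 2 libraries. Mir15b, Mir195a, Mir15a and Mir497 are higher in replicate 1, Mir195a by the widest gap (3125 and 437 CPM), while the points of Mir16-2 lie at 178 and 192 CPM.

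The annotated hairpins run from 64 bases for Mir15b to 95 for Mir16-2, so members were also ordered by CPM per hairpin base. On this scale the mean levels were 44.1 ± 37.6 for Mir15b, 19.1 ± 12.6 for Mir15a, 18.9 ± 20.2 for Mir195a, 6.16 ± 3.54 for Mir497, 6.10 ± 0.70 for Mir16-1 and 1.95 ± 0.10 for Mir16-2 (SD, n = 2). The ranges of neighbours from Mir15b down to Mir16-1 overlapped over the libraries. Within each library, however, Mir15b was highest and Mir16-2 lowest, and Mir195a stood above Mir497. The values of the Mir16 genes leave out multi-mapped reads, so their places in this order hold for the counted reads only. The order of Mir15a and Mir195a, and that of Mir497 and Mir16-1, differed between the libraries. Mir195a held the second place in replicate 1, at 33.2 CPM per base, and the fourth in replicate 2, at 4.65, below Mir16-1 at 5.61.

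The differences between the libraries were set against those of all 441 miRNA genes with 10 or more counts over both. Ratios are differences of log2(CPM + 1), replicate 2 minus replicate 1. Each gene was compared with the rest of its library by a two-sided Fisher's exact test, with p-values adjusted over the 441 genes by the Benjamini-Hochberg method. It compares these libraries only and takes counting error as the only error. All 6 members were tested, and 5 differed at an adjusted p under 0.05, all 5 lower in replicate 2. With TMM or DESeq2 scaling, tested by an exact binomial test, 5 members passed as well, 4 lower and 1, Mir16-2, higher. Over all tested genes 54.6% passed with either scaling. In Fisher's exact test 56.9% of all tested genes passed, and 36.5% passed with the lower value in replicate 2. Passing was thus the more common outcome for any tested gene.

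By size, 4 of the 6 members were over 2-fold lower in replicate 2. The size rule was read over the 243 genes that averaged 100 counts or more, all 6 members among them. Of these, 16.9% were over 2-fold apart and 13.2% were so with the lower value in replicate 2. The members' median log2 ratio was -1.35, beside -0.26 over all tested genes. Scaling by TMM (trimmed mean of M-values) adds up to 0.30 to a ratio and DESeq2 size factors up to 0.27, less in genes of low level because of the pseudocount. The median over all tested genes becomes -0.0083 and -0.038. With either, 3 members remained over 2-fold apart, beside 40 of the 243 genes with TMM and 41 with DESeq2 size factors. Mir497 was just under, at -0.94 with TMM. edgeR's exact test, whose biological coefficient of variation of 0.379 was estimated on these libraries themselves, called 2 of 441 genes and 0 of the 6 members at an adjusted p under 0.05. Before adjustment, edgeR's exact test had 23 genes and 2 members below 0.05, Mir195a (p = 0.0024, adjusted p = 0.15) and Mir15b (p = 0.035, adjusted p = 0.7).

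Mir195a had a log2 ratio of -2.84, position 2 of 243 counted from the lowest. Mir15b followed at -2.01 (position 10), Mir15a at -1.47 (position 15) and Mir497 at -1.24 (position 25). The adjusted p in Fisher's exact test was 8.3e-153 for Mir497 and below 1e-300, the smallest value written, for the other three. These 4 genes were 2.37-fold (Mir497) to 7.15-fold (Mir195a) higher in replicate 1.

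The Mir16 genes stood in the middle of the distribution. Mir16-1 had a log2 ratio of -0.23 (position 120 of 243, adjusted p = 1.5e-07, Fisher's exact test), which turns to 0.07 with TMM (adjusted p = 0.17, exact binomial test) and 0.04 with DESeq2 scaling (adjusted p = 0.49), so both its direction and its call depended on the scaling. Mir16-2 had a log2 ratio of 0.11 (position 171, adjusted p = 0.22, Fisher's exact test). With TMM scaling it became 0.41 (adjusted p = 1.3e-07, exact binomial test), and without regard to strand -0.0029. For these genes the reads assigned to a single place differed little, while the share of multi-mapped reads, which can hold miR-16-5p, was 38.1% and 42.3%. What part of those reads is miR-16 was not tested.

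**Figure D2:**
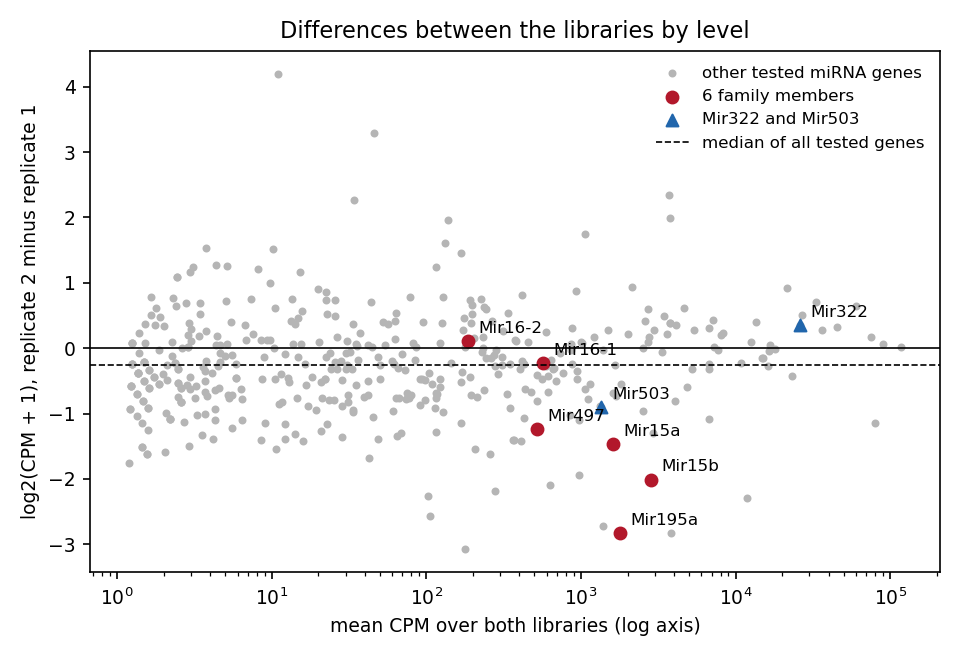
Difference in log2(CPM + 1), replicate 2 minus replicate 1, against mean CPM (log axis) for the 441 tested miRNA genes; members are red circles, Mir322 and Mir503 blue triangles, other genes grey, and the dashed line is the median of all tested genes (-0.26). Mir195a at -2.84 lies at the lower edge of the cloud and Mir16-1 and Mir16-2 lie within its middle.

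The 2 hairpins of each locus are known to be cut from a shared primary transcript, so their ratio was taken within each library, where library scaling cancels. Mir15b had 25.4 times the counts of Mir16-2 in replicate 1 (exact binomial interval 23.6 to 27.4) and 5.84 times in replicate 2 (5.39 to 6.32). Per base of hairpin these count ratios were 37.7 and 8.66. The pair's ratio differed 4.35-fold between the libraries.

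The other loci went the same way. Mir15a had 3.83 times the counts of Mir16-1 in replicate 1 (3.67 to 4.00) and 1.63 times in replicate 2 (1.54 to 1.73), or 4.24 and 1.81 per hairpin base. Mir195a had 4.29 times the counts of Mir497 in replicate 1 (4.13 to 4.47) and 1.42 times in replicate 2 (1.32 to 1.53), or 3.84 and 1.27 per hairpin base. In all 3 pairs the hairpin with more counts was the same in both libraries, and its excess was smaller in replicate 2 by more than the counting intervals. The mean log2 count ratios were 3.61 ± 1.50 for Mir15b to Mir16-2, 1.32 ± 0.87 for Mir15a to Mir16-1 and 1.31 ± 1.13 for Mir195a to Mir497 (SD, n = 2). The Mir16 counts leave out reads within the shared run, so the ratios of the Mir15 pairs do not tell which hairpin is more abundant. The part of the multi-mapped reads in these ratios was not tested.

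**Figure D3:**
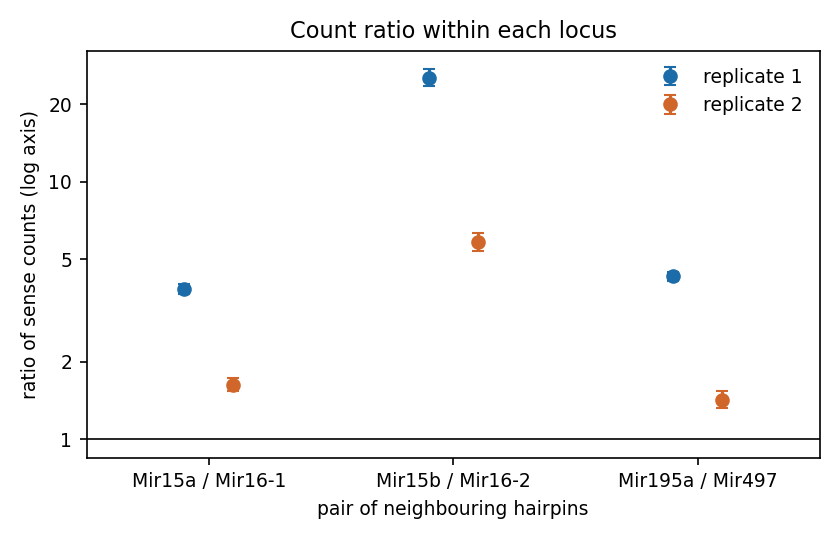
Ratio of sense counts between neighbouring hairpins (log axis) for the 3 loci in replicate 1 (blue) and replicate 2 (orange), with exact binomial intervals at 95%; the line marks a ratio of 1. Every ratio lies above 1 and is smaller in replicate 2, from 25.4 to 5.84 for Mir15b over Mir16-2. Counts of the Mir16 genes leave out multi-mapped reads.

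The make-up of the family's counted reads differed as well. Of the members' own counts, the Mir15b locus held 40.8% in replicate 1 and 38.3% in replicate 2. The Mir195a locus held 33.5% and 21.7%, and the Mir15a locus 25.7% and 40.02%. Mir195a alone made up 27.1% and 12.7%, and Mir16-1 5.33% and 15.2%. These parts leave out multi-mapped miR-16-5p reads, so they are not the make-up of the family with those reads included.

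Other genes carry the same seed, and the members were compared with them as a pool. Besides the 6 members, Mir322, Mir195b, Mir6342, Mir6353 and Mir6419 have the seed AGCAGCA in the table. Mir322 had 96329 and 111612 counts, or 22954 and 29358 CPM, and the other 4 genes had 0 counts in both libraries. Of further relatives, Mir503, whose seed AGCAGCG differs in its last base, had 1769 and 945 CPM, and Mir1907 had 1 and 0 counts.

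The pool as a whole differed 1.05-fold between the libraries, and the members' part of it 3.19-fold. On total counts the pool was lower in replicate 2 by a log2 ratio of -0.07, which turns to 0.23 with TMM and 0.20 with DESeq2 scaling. Genes with the seed held 3.45% of sense counts in replicate 1 (3.43 to 3.46) and 3.28% in replicate 2 (3.26 to 3.30), a mean of 3.36% ± 0.12 (SD, n = 2). The 6 members made up 33.4% of this pool in replicate 1 (33.2 to 33.6) and 10.5% in replicate 2 (10.3 to 10.6), and Mir322 the rest, 66.6% and 89.5%. Mir322 had a log2 ratio of 0.36, which TMM scaling raises to 0.66, against the negative ratios of the 4 members above. Mir503, which lies near Mir322 on the X chromosome, had -0.90. The counts combine both arms of a hairpin, so the pool also holds 3p reads without the seed, and it leaves out multi-mapped miR-16-5p.

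**Figure D4:**
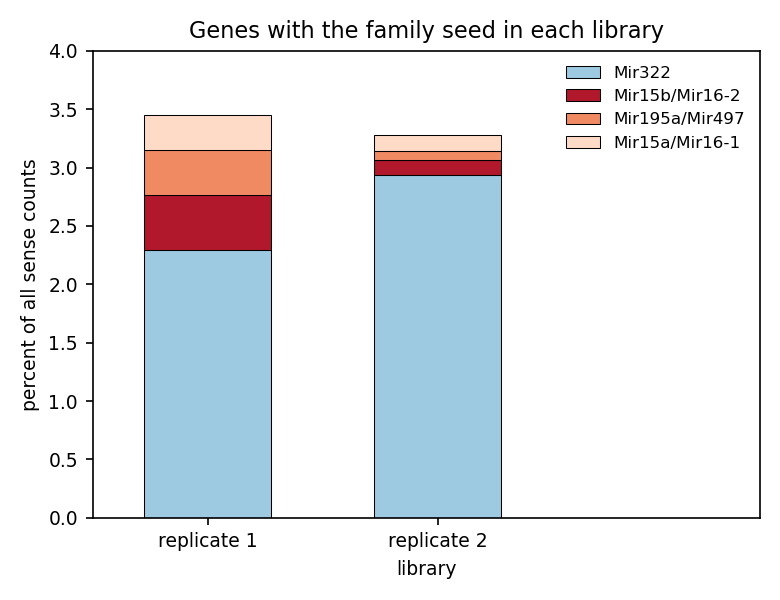
Percent of all sense counts held by genes with the seed AGCAGCA in each library, stacked by Mir322 and the 3 family loci. The bars reach 3.45% and 3.28%, and the part of the 3 loci shrinks from 1.15% to 0.343% in replicate 2.

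With 2 libraries, a pattern across samples is only the ratio between them, and likeness was measured as the distance between log2 ratios among 237 other genes that averaged 100 counts or more. Nearest to Mir195a (-2.84) were Mir214 at -2.83 and Mir301 at -2.72. Mir214, known from fibroblasts and matrix remodelling, had 6683 and 941 CPM. Nearest to Mir15b (-2.01) were Mir106b at -1.94 and the hypoxia-induced Mir210 at -2.10, and nearest to Mir15a (-1.47) were Mir25 at -1.42 and Mir29a at -1.40, a repressor of collagens.

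Nearest to Mir497 (-1.24) were Mir24-2 at -1.29 and Mir505 at -1.30. Mir16-1 (-0.23) had Mir28a at -0.24 and Mirlet7e at -0.23 beside it, and Mir16-2 (0.11) had Mirlet7a-1 at 0.11 and Mir450-1 at 0.10. Such pairs are a description, since a single ratio gives many genes like values.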

How the data were processed

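The 2 microRNA-seq libraries of mouse heart were analysed. The authors deposited raw counts of reads for each miRNA gene, ignoring strand, on the gene's strand and on the other strand. They use mm10 and GENCODE M21, per the description files. Which aligner and counter were run is not given in the sources used here. Any loss of CAST reads on mm10 was not tested. Lines for multi-mapped, unmapped, unassigned and ambiguous reads were kept out of library sizes and tests; reads outside annotated genes made up 4.01% and 3.70%. The sense column was identified from the values over all genes: of 363 genes with 10 or more strand-blind counts in replicate 1, the same count stood in that column for 347 and in the other for 0 (318 and 0 of 328 in replicate 2).

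Symbols, positions and hosts came from GENCODE M21, and sequences from RefSeq (GRCm38.p6). All 6 members matched both. Members and lists were chosen with earlier results of these data known. Named genes are the members, genes of the same seed and a list of relatives, the 2 genes nearest each member in log2 ratio, and neighbours within 10 kb.

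CPM used sense totals, and ratios a pseudocount of 1 CPM. Genes with 10 or more counts were compared by Fisher's exact test (SciPy 1.17.1); a quasi-likelihood fit leaves 0 residual degrees of freedom. Alternatives used edgeR 4.0.16 (TMM, exact test with the spread of 344 genes) and DESeq2 1.42.0 size factors. The Fisher test and log2 ratio were tested on simulated data.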

Additional observations from a re-analysis of the deposited data

How the results depend on the processing

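Of 90 recomputed values of 20 results, 81 kept their direction and call or moved by less than the spread between the libraries. These 81 include counts of members that changed little, such as from 4 to 3 over 2-fold apart, without regard to the spread. They also include values with a replicate left out. With 2 libraries such values always move by less than the SD, so they do not test a result. The exceptions follow. The log2 ratio of Mir16-1 turned to 0.070 with TMM and 0.039 with DESeq2 scaling, and that of Mir16-2 to -0.0029 without regard to strand. Scaling also brought Mir16-2 past the threshold, at 0.41 and 0.38. edgeR's exact test called 0 members. Without regard to strand Mir497 had 0 counts, so its locus ratio and log2 ratio could not be computed, and Mir16-1 and Mir16-2 averaged 742 and 241 CPM because the library total is smaller. Leaving out a replicate gave a family share of 0.343% to 1.15%. It gave log2 locus ratios of 0.71 to 1.94 for Mir15a, 2.54 to 4.67 for Mir15b and 0.51 to 2.10 for Mir195a. With 2 libraries, no spread between animals can be estimated apart from the difference itself. No paired analysis was possible because there is 1 group.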

Other observations

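The proliferation-linked miR-17-92 cluster with its paralogs was taken as a counterpart to the family. Of 15 genes 13 were tested, and in Fisher's exact test 4 were higher and 5 lower in replicate 2, beside 56.9% of all tested genes that differed and 36.5% that were lower. The list had a median log2 ratio of -0.03 (0.17 with TMM scaling). The list held 1.92% and 2.11% of sense counts, with multi-mapped reads left out. Mir92 and Mir19b have copies in the list, and what part of their reads is multi-mapped was not tested. Its members at the Mcm7 locus, a replication helicase gene, differed in direction. Mir93 had 5986 and 7427 CPM, while Mir106b had 1535 and 399 CPM and Mir25 had 595 and 222 CPM. Mir17 had 6077 and 8199 CPM, and Mir92-1 had 1995 and 1237 CPM.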
